A study of Homo sapiens with 6 samples.

Results

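The genes described here are the human SMARC, ARID and CHD genes, which encode subunits of ATP-dependent chromatin remodelers and DNA-binding proteins of the same families. They were chosen by symbol, as all genes named SMARC followed by A to E, ARID1 to ARID5, or CHD followed by a digit. The rule found 34 of the 27968 genes in the deposited tables, of which 14 were SMARC, 10 ARID and 10 CHD genes. One of the 34, SMARCA5-AS1, is an antisense transcript and the other 33 encode proteins. RNA had been sequenced from T47D, an established human breast cancer cell line of luminal, estrogen receptor-positive type, 48 hours after lipid transfection of a control siRNA or an siRNA made against HOTAIR-N, which is a version of HOTAIR, a long noncoding RNA transcribed from the HOXC cluster. Each siRNA was given in 3 independent transfections, and total RNA was depleted of ribosomal RNA before sequencing. All 6 libraries therefore come from 1 cell line that was transfected with an siRNA, and the siRNA sequences are not given in the sources used here. The comparison asks how the levels of these genes differ after the HOTAIR-N siRNA.

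Chromatin remodelers use the energy of ATP to slide, evict or exchange nucleosomes. BAF and PBAF, the mammalian SWI/SNF complexes, are built around SMARCA4 (BRG1) or SMARCA2 (BRM), on a core of SMARCC, SMARCD, SMARCB1 and SMARCE1 subunits. ARID1A or ARID1B marks BAF and ARID2 marks PBAF. These ARID subunits exclude each other in a complex, as do SMARCA4 and SMARCA2. ISWI complexes, with SMARCA1 (SNF2L) or SMARCA5 (SNF2H), space nucleosomes evenly. CHD1 to CHD9 carry paired chromodomains, which in CHD1 recognise a modified histone. CHD3, CHD4 and CHD5 join remodeling to histone deacetylation in the NuRD complex. SWI/SNF subunit genes are often mutated in cancers, and in breast cells SWI/SNF is known as a partner of the estrogen receptor.

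HOTAIR was lower in all 3 libraries that received the HOTAIR-N siRNA. Its level was 16.2, 16.1 and 16.6 CPM (counts scaled to a common library size) in control replicates 1 to 3 and 5.65, 5.63 and 5.68 CPM after the HOTAIR-N siRNA (34.7% of control). HOTAIR lies opposite HOXC11, and reads of the strands cannot be told apart without the counting's strand setting. Luminal identity was checked by 8 markers, all of which were above 1 TPM (a level per transcript length) in all libraries and summed to 8966 to 10180 TPM with the control and 7961 to 8833 TPM with the HOTAIR-N siRNA. Of these, 6 fell (34.8% of all tested genes did), with ESR1 (the estrogen receptor) at 32.1% and PGR (the progesterone receptor) at 36.4% of control. The 10 markers of basal, mesenchymal, immune and endothelial cells summed to between 9.11 and 10.51 TPM in all libraries, and COL1A1 was the only one above 1 TPM throughout, while 7 had too few counts to be tested and 0 were at 0 in all libraries. VIM rose from at most 0.16 TPM to between 1.16 and 1.59 TPM. Whether these shifts have a part in the results below was not tested, and in bulk RNA fewer cells that express a gene and less RNA per cell cannot be told apart.

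Of the 33 genes with enough counts to be tested, 24 (72.7%) changed, 8 higher and 16 lower. Changed means that edgeR's quasi-likelihood test over all genes gave a Benjamini-Hochberg adjusted p below 0.05. The background was as high. Of 14919 tested genes 71.1% changed, 36.2% higher and 34.8% lower, so that the share of remodeler genes that changed is near that of all genes. The median log2 fold change (HOTAIR-N siRNA over control) was -0.09 for the remodeler genes and 0.02 for all genes. In 24 of them (72.7%) the 3 control libraries did not overlap with the 3 HOTAIR-N libraries, against 73.4% of all tested genes. Changes of at least 1.5-fold were found in 7 (21.2%, against 32.7% of all genes) and of at least 2-fold in 4 (12.1%, against 15.8%). All 33 passed the minimum of the count filter in each of the 6 libraries, so none was tested only because of its level in 1 group.

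**Figure D1:**
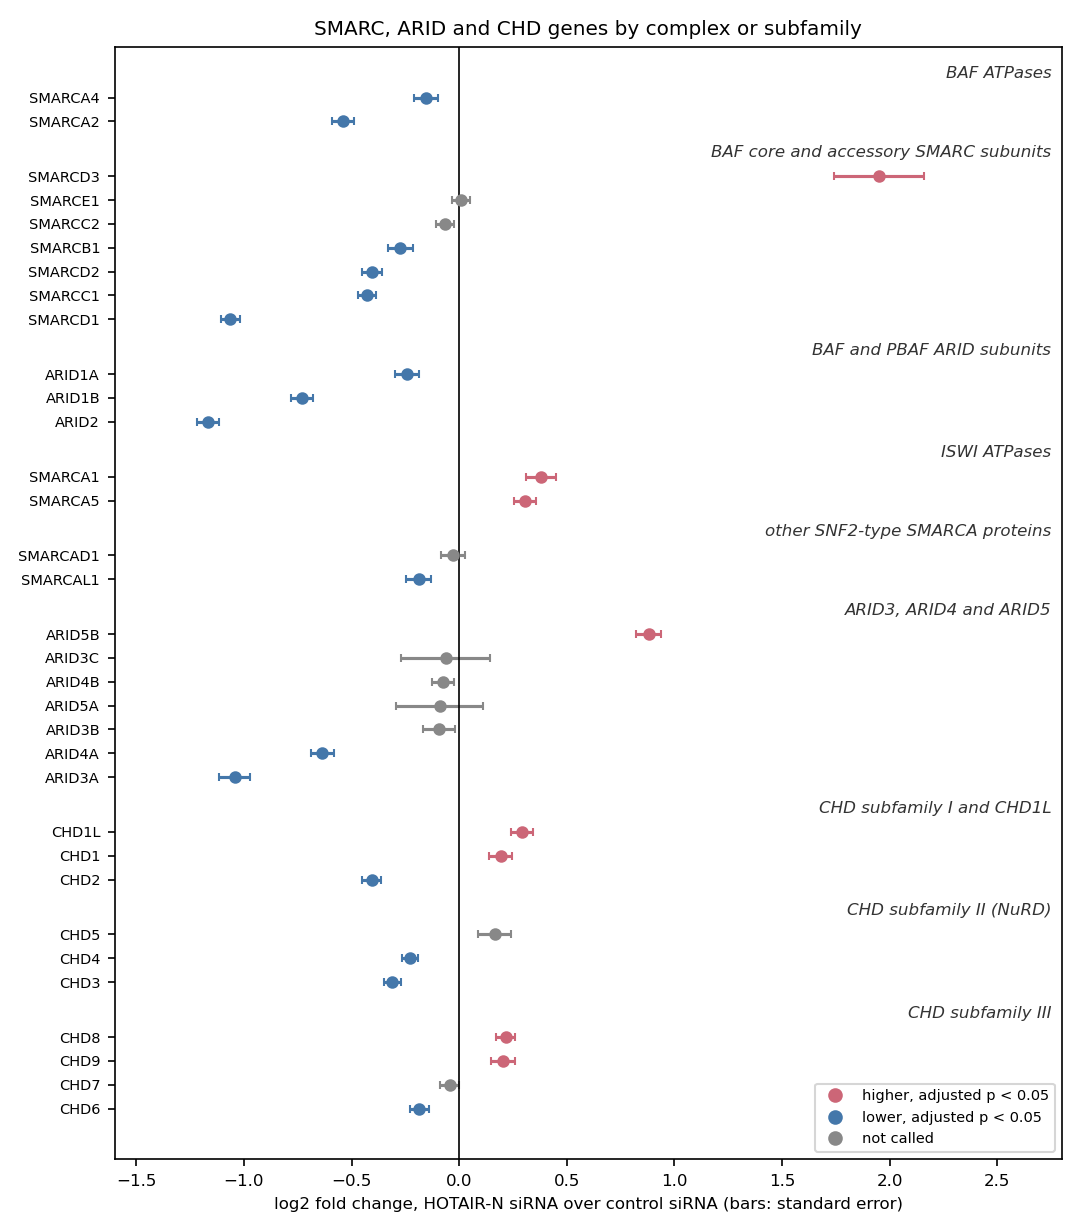
Log2 fold change of each tested SMARC, ARID and CHD gene (x axis, HOTAIR-N siRNA over control siRNA, bars are standard errors from the edgeR fit), grouped by complex or subfamily. Genes of BAF and PBAF lie mostly to the left, with ARID2 at -1.17, while SMARCD3 stands alone at 1.95 and no CHD gene lies beyond -0.41 or 0.29; the sign of grey points depends on the scaling in 8 of the 9.

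The genes spanned more than 2 orders of magnitude of expression. On the TPM scale the level with the control siRNA was highest for SMARCD2, at 223, 211 and 229 TPM, followed by SMARCE1 at 148 to 157 TPM. SMARCB1, CHD4 and SMARCC1 came next, at 83 to 89.4, 85.1 to 87.8 and 84.7 to 89 TPM, and did not differ from each other beyond their spread. The lowest tested genes were ARID5A (0.72 to 0.93 TPM) and SMARCD3 (0.52 to 0.94 TPM), whose ranges overlapped with the control siRNA. With the HOTAIR-N siRNA SMARCD2 and SMARCE1 were still first and second, ARID2 went from rank 14 to rank 21 and SMARCD1 from rank 8 to rank 13. ARID5B moved the other way, from rank 29 to rank 24. SMARCA5-AS1 had at most 0.16 TPM in any library and was not tested.

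**Figure D2:**
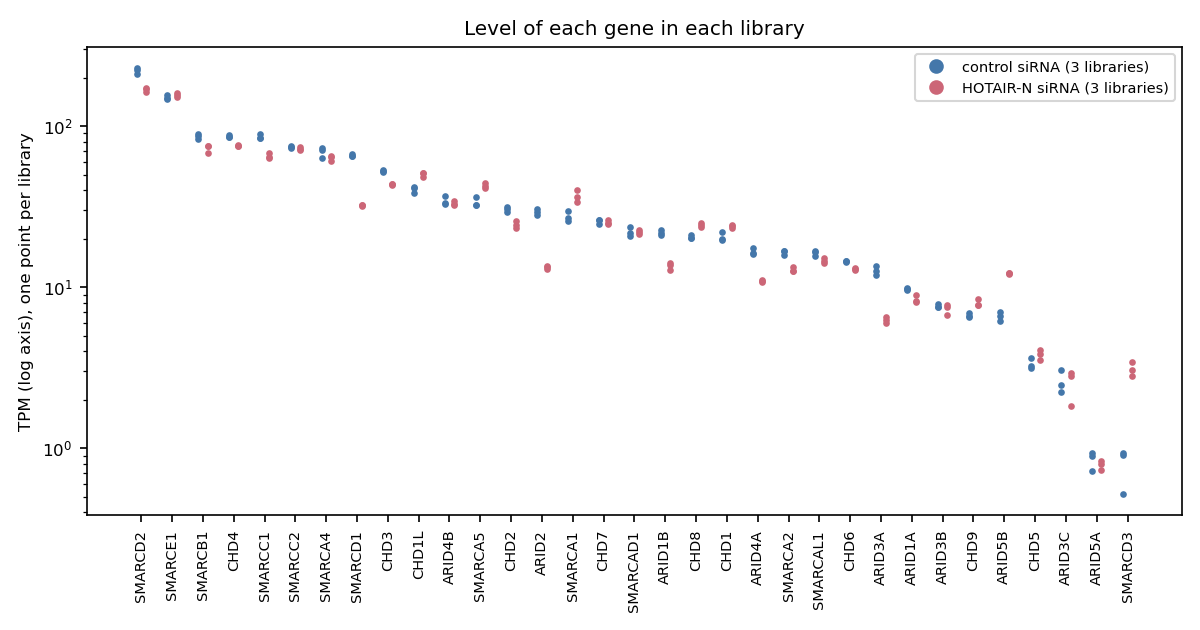
Level of each tested gene in each library in TPM (y axis, log scale), ordered by the mean with the control siRNA (3 points each for control and HOTAIR-N siRNA). SMARCD2 leads in both groups, at 223, 211 and 229 against 170, 173 and 162 TPM, and SMARCD3 is the gene whose groups lie farthest apart, at 0.52 to 0.94 against 2.82 to 3.43 TPM.

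Subunits of BAF and PBAF were mostly lower. Of the 12 genes of these complexes, 9 fell, SMARCD3 rose, and SMARCC2 and SMARCE1 did not pass the test. Their median log2 fold change was -0.34. The same libraries gave 34.8% of all tested genes as lower.

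The ARID subunits, which give each complex its identity and its DNA contact, all fell. ARID2, the defining subunit of PBAF, stood at 101, 111 and 103 CPM in the control libraries and at 46.4, 46.3 and 47.6 CPM with the HOTAIR-N siRNA. The groups were far apart, and the level fell to 44.5% of control (log2 fold change -1.17, SE 0.05, edgeR adjusted p = 1.45e-09). ARID1B, one of the BAF alternatives, went from 118, 112 and 115 CPM to 70.5, 72 and 65.5 CPM. This was 60.3% of control (log2 fold change -0.73, SE 0.05, edgeR adjusted p = 8.80e-08). ARID1A, the other BAF alternative and a frequent tumour suppressor, changed least of these genes, from 45, 44.3 and 45.1 CPM to 36.7, 40.2 and 36.7 CPM, or to 84.5% of control (edgeR adjusted p = 0.00172). The libraries of the 3 genes did not overlap between groups. Summed per length, the 3 ARID subunits went from 60.9 ± 0.491 TPM to 35.2 ± 0.748 TPM (SD, n = 3). ARID2 made up 46.1%, 49.7% and 48.2% of that sum in the control libraries and 37.9%, 36.2% and 39.0% with the HOTAIR-N siRNA. The share of ARID1A was 15.7% to 16.3% with the control and 23.2% to 24.9% with the HOTAIR-N siRNA, so that its part of the smaller sum was larger.

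The ATPases of BAF both fell, by unequal amounts. SMARCA2 went from 46.8, 47.2 and 45.4 CPM to 32.7, 31 and 32.2 CPM, 68.8% of control (log2 fold change -0.54, SE 0.05, edgeR adjusted p = 1.69e-06). SMARCA4, the ATPase with the higher level, had 200, 181 and 208 CPM with the control siRNA and 179, 181 and 169 CPM with the HOTAIR-N siRNA. Its groups overlapped at 181 CPM. The call for SMARCA4 was weak (log2 fold change -0.15, SE 0.05, edgeR adjusted p = 0.0248) and was lost when control replicate 1 or 3 or HOTAIR-N replicate 1 or 3 was left out (edgeR adjusted p 0.0515 to 0.108). It was also lost with library totals (adjusted p = 0.398) or upper quartiles as the scaling (adjusted p = 0.143).

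Within the core, SMARCD1 fell the most. SMARCD1, which links the complex to nuclear receptors and other transcription factors, had 115, 119 and 116 CPM with the control siRNA and 56.2, 56.4 and 55.2 CPM with the HOTAIR-N siRNA. It reached 47.9% of control (log2 fold change -1.06, SE 0.04, edgeR adjusted p = 1.09e-09). SMARCD2, a paralog in the same place, went from 265, 252 and 274 CPM to 203, 205 and 190 CPM (75.6% of control, edgeR adjusted p = 7.57e-06). SMARCC1, a scaffold subunit, went from 257, 271 and 259 CPM to 191, 191 and 203 CPM (74.3% of control, edgeR adjusted p = 2.37e-06). The libraries of these genes did not overlap between groups. SMARCB1, a core subunit whose loss drives rhabdoid tumours, had 69.7, 73.8 and 75.9 CPM against 62.8, 62.4 and 56.1 CPM (82.7% of control, edgeR adjusted p = 0.00114). In GENCODE v29 its exons overlap those of DERL3 on the opposite strand. The overlap is 2923 bases over all annotated transcripts and 1047 over those matched to the deposited RefSeq names. The match was by name alone. GENCODE's transcript for NM_003073 has 5210 bases and the deposited one 1735, so whether the counted sequence holds the overlap is not known. DERL3 had a log2 fold change of 1.14, and the value of SMARCB1 is uncertain without the strand setting. SMARCC2, the paralog of SMARCC1, had 197, 194 and 202 CPM against 189, 193 and 185 CPM and did not pass the test (log2 fold change -0.07, SE 0.04, edgeR adjusted p = 0.159). It passed when control replicate 2 and HOTAIR-N replicate 3 were both left out (edgeR adjusted p = 0.0251). SMARCE1, the HMG-box subunit, stood at 182, 193 and 183 against 182, 187 and 190 CPM (log2 fold change 0.01, SE 0.04), with overlapping groups.

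SMARCD3 was the only one of the 12 BAF and PBAF genes chosen by the rule that rose. SMARCD3 (BAF60c), the paralog known from heart and muscle, had 0.42, 0.774 and 0.745 CPM with the control siRNA and 2.47, 2.77 and 2.26 CPM with the HOTAIR-N siRNA. It rose 3.86-fold (log2 fold change 1.95, SE 0.21, edgeR adjusted p = 4.37e-06), from 15 to 26 counts per library to 78 to 91. It was still far below its paralogs. SMARCD3 made up 0.18% to 0.337% of the TPM of the 3 SMARCD genes with the control siRNA and 1.43% to 1.64% with the HOTAIR-N siRNA, while SMARCD2 made up 75.6% to 77.6% and 82.4% to 82.9%.

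The counts of SMARCD3 were also assigned to another transcript in each group. RSEM, the program that shared reads among transcripts, placed all counts of the gene on NM_001003802 in the control libraries (15, 26 and 26) and all on NM_001003801 with the HOTAIR-N siRNA (90, 91 and 78). Both transcripts were at 0 in the other group, so a fold change could only be set against an assumed floor. Against a floor of 3 counts in each library, NM_001003801 was 29.1-fold higher and NM_001003802 7.39-fold lower. These values are not bounds, since the floor does not cover reads assigned to the wrong transcript. The transcripts start 27.8 kb apart and differ in their first coding exon. The first 30 coding bases, with the start codon in capitals, show that the proteins begin differently (GENCODE v29, GRCh38, minus strand, chr7:151248533-151248562 and chr7:151275123-151275152).
NM_001003801: ATGgccgcggacgaagttgccggaggggcg
NM_001003802: ATGactccaggtcttcagcacccacccacc
The forms have 483 and 470 residues. All-or-none assignment at so few counts rests on the program's estimate, and at the gene level the rise does not depend on it. Each transcript passed the count filter only through the group in which it was found, so a test of its share supports nothing further.

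Changes in pairs of paralogs were set side by side as ratios of TPM within each library. With 3 libraries against 3, the smallest exact permutation p is 0.1, so no ratio could pass 0.05. In 7 of the 9 pairs the groups did not overlap, with an exact two-sided permutation p = 0.1 (adjusted over the 9 pairs 0.129). Of single genes 73.4% did not overlap, and the share for other pairs of genes was not computed. SMARCD2 stood to SMARCD1 as 3.41, 3.15 and 3.51 with the control siRNA and as 5.30, 5.32 and 5.08 with the HOTAIR-N siRNA. SMARCC2 was below SMARCC1 in every control library, with ratios of 0.818 to 0.885, and above it in every HOTAIR-N library, with 1.04 to 1.16. ARID1B over ARID1A went from 2.20 to 2.30 down to 1.55 to 1.68. The order of SMARCC1 and SMARCC2 was thus turned, while ARID1B stayed above ARID1A. In GENCODE v29 exons of SMARCC2 share 514 bases with MYL6 on the opposite strand (MYL6 log2 fold change 0.38). Over transcripts matched to the deposited names the overlap is 0. The deposited NM_003075 has 5088 bases and GENCODE's 4076, so whether the counted sequence reaches MYL6 is not known. The SMARCC2 ratios are uncertain without the strand setting. The ratio of SMARCA2 to SMARCA4 lay at 0.216 to 0.264 and 0.193 to 0.217 and overlapped (exact permutation p = 0.2).

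**Figure D3:**
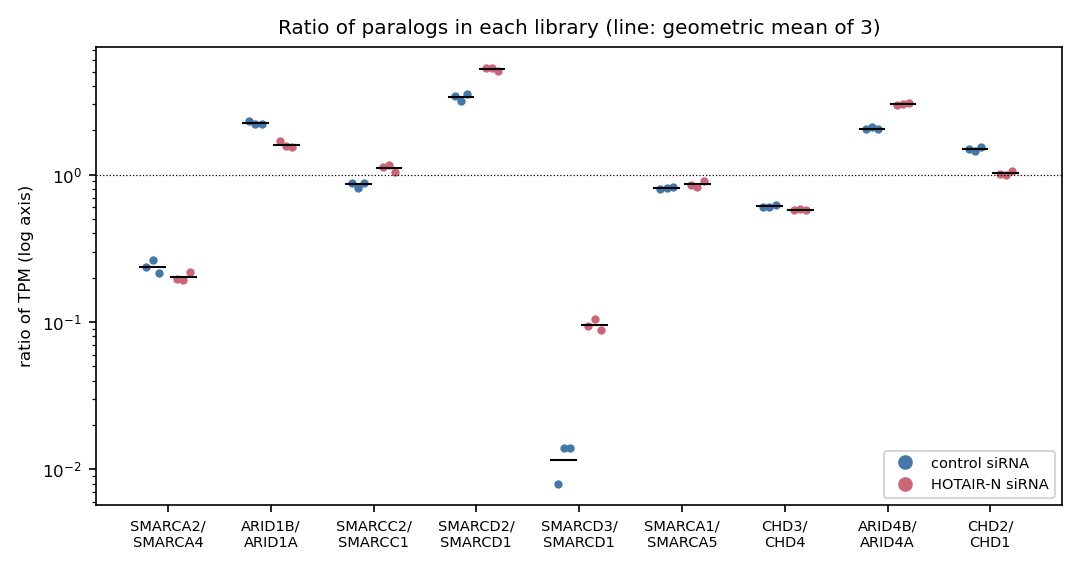
Ratio of the TPM of 2 paralogs in each library (y axis, log scale; blue control siRNA, red HOTAIR-N siRNA; black lines are geometric means of 3 libraries; dotted line, equal levels). SMARCC2/SMARCC1 crosses the line of equal levels, from 0.818 to 0.885 up to 1.04 to 1.16, and SMARCA2/SMARCA4 and SMARCA1/SMARCA5 overlap between the groups.

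Genes that work with these subunits in BAF and PBAF were tested as a list of 16, of which 12 had enough counts. Among them 6 fell, 2 rose and 4 did not pass the test, a share changed of 66.7% where 71.1% of all tested genes changed. Their median log2 fold change was -0.24 (all genes 0.02). SS18, the BAF subunit fused in synovial sarcoma, went from 106, 117 and 107 CPM to 60.2, 61 and 61.9 CPM (55.5% of control, edgeR adjusted p = 2.58e-08). BRD7, a bromodomain subunit of PBAF, went from 84.8, 94.4 and 88.2 CPM to 49.8, 47.3 and 49.5 CPM (54.9% of control). BCL7C at 59.7% and the PBAF subunit PHF10 at 71.8% of control followed. PHF10, BRD7 and ARID2 are the PBAF-specific genes that fell, and PBRM1, the PBAF subunit with many bromodomains, stood at 97.4% of control with overlapping groups (edgeR adjusted p = 0.51). ACTB, the actin of the complex and of the cytoskeleton, and BCL7B rose, to 119% and 117% of control. The neural and lymphoid subunits ACTL6B, DPF3, BCL11A and BCL11B had too few counts to be tested. Of the 3 genes specific to noncanonical BAF, BRD9 (82.9% of control) and BICRAL (81.6%) fell, and BICRA did not pass the test (log2 fold change -0.12, SE 0.12).

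The ISWI ATPases rose while most listed genes of their partner subunits fell. SMARCA5, the more widely expressed ATPase, had 137, 154 and 138 CPM with the control siRNA and 177, 170 and 182 CPM with the HOTAIR-N siRNA. It rose 1.24-fold (log2 fold change 0.31, SE 0.05, edgeR adjusted p = 0.000229). SMARCA1 went from 53.6, 62 and 56.6 CPM to 74, 69 and 81.1 CPM, a rise of 1.3-fold (log2 fold change 0.38, SE 0.07, edgeR adjusted p = 0.000391). The groups did not overlap for either gene. Of 9 partner genes 7 fell, 0 rose and 2 did not pass edgeR's test, where 34.8% of all tested genes fell. The median log2 fold change of the 9 was -0.31. Against a minimum change of 1.2-fold (edgeR glmTreat) 4 of them were lower, where 3312 of all 14919 tested genes were. SMARCA5 lost its call in that test (adjusted p = 0.153). BAZ2B, a bromodomain partner, went from 21.8, 23 and 19.8 CPM to 7.71, 8.03 and 8.78 CPM (38% of control, edgeR adjusted p = 1.58e-08). BAZ2A (TIP5), which silences ribosomal genes with SMARCA5, stood at 61.8%, BAZ1A (ACF1) at 62.8% and BAZ1B (WSTF) at 78.9% of control.

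SMARCA1 changed its transcripts as well as its level. Exon 13 of SMARCA1, 36 bases that keep the reading frame, is present in NM_003069 and NM_001282874 and absent from NM_001282875. The form with this exon is known to lack remodeling activity. The exon in full, shown because it tells the forms apart, lies within the coding sequence at chrX:129493040-129493075 (GENCODE v29, GRCh38, minus strand).
SMARCA1 exon 13: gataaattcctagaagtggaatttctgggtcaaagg
Transcripts with exon 13 held 55.7%, 63.9% and 58.4% of the gene in the control libraries and 29.7%, 35.1% and 28.9% with the HOTAIR-N siRNA, a difference of the deposited share of -28.1 percentage points. The form without the exon went from 11.5, 10.7 and 11.2 TPM to 25.4, 22.0 and 28.4 TPM, and the forms with it from 14.4, 18.9 and 15.7 TPM to 10.7, 11.9 and 11.5 TPM. The rise of the gene is thus the sum of a higher form without and lower forms with the exon, and the groups overlapped for neither (exact permutation p = 0.1, the smallest possible). The usage of NM_001282875 passed the test (limma adjusted p = 0.0219), and edgeR's diffSpliceDGE also called SMARCA1 (Simes p adjusted over genes 0.00354). The limma call was lost without control replicate 3 or any one HOTAIR-N replicate (adjusted p 0.0649 to 0.0822).

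The fall of the ATPase gene SMARCA2 was found in 1 class of its long forms. NM_139045, the long form that lacks a 54-base coding exon, went from 32.3, 33.8 and 35.2 CPM to 18.4, 17.5 and 17.5 CPM (log2 fold change -0.92, SE 0.06, edgeR adjusted p = 0.0002 over transcripts). Long forms without the exon held 62.5%, 65.6% and 72.2% of the gene with the control siRNA and 47.8%, 45.9% and 46.3% with the HOTAIR-N siRNA. Long forms with it held 17.2% to 24.1% and 25.9% to 31.1%, and their level was 3.48 ± 0.684 against 3.58 ± 0.284 TPM (SD, n = 3), with overlapping groups. Short forms, which begin within the gene, encode the C-terminal part with the bromodomain and lack the ATPase, held 10.6% to 13.4% and 21.2% to 27.8%. The usage call of NM_139045 (limma adjusted p = 0.0407) was lost when any one library was left out (adjusted p 0.0758 to 0.133). The exon that separates the long forms lies at chr9:2170419-2170472 (GENCODE v29, GRCh38, plus strand).
SMARCA2 54-base exon: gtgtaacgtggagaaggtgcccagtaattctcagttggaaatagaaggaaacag

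**Figure D4:**
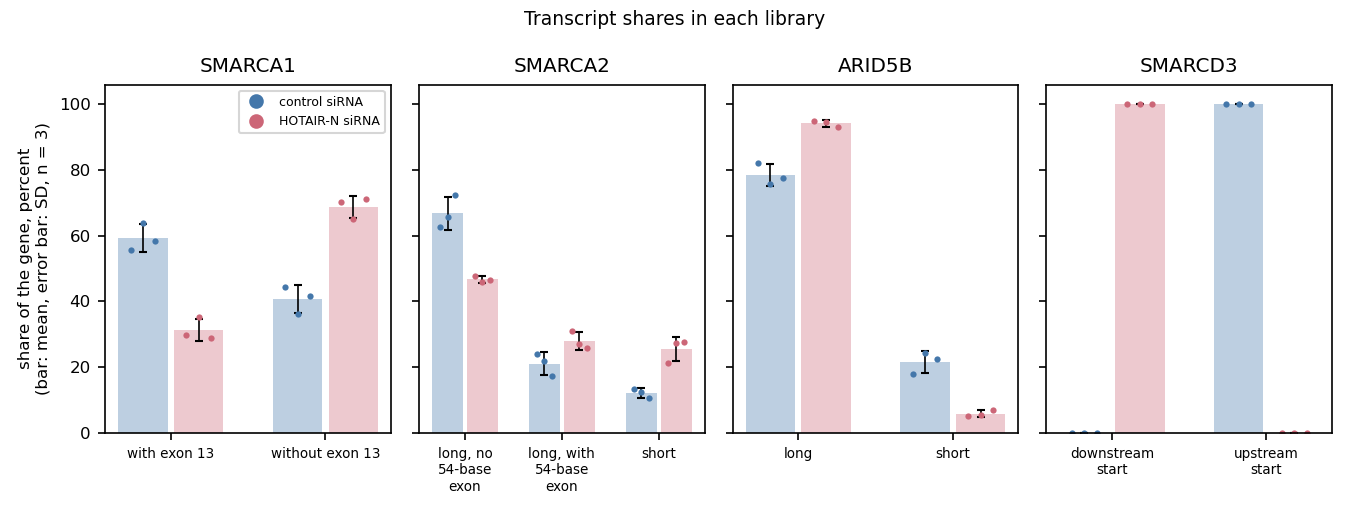
Share of the gene held by transcript classes of SMARCA1, SMARCA2, ARID5B and SMARCD3 (y axis, percent; bars are means and error bars SD of 3 libraries, points are libraries). The share with exon 13 of SMARCA1 goes from 59.3% to 31.2% and the long form of ARID5B from 78.5% to 94.2%. The counts of SMARCD3 are assigned to another transcript in each group.

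ARID3, ARID4 and ARID5 proteins bind DNA through the same kind of domain but are not SWI/SNF subunits, and their genes changed in both directions. Of 7, 2 fell, 1 rose and 4 did not pass the test. The share changed was 42.9%, where 71.1% of all tested genes changed, 36.2% higher and 34.8% lower. ARID3A (Bright), a transcription factor first known from B cells, went from 19.4, 17.2 and 18.2 CPM to 9.25, 8.49 and 8.84 CPM (48.5% of control, log2 fold change -1.04, SE 0.07, edgeR adjusted p = 8.55e-08). ARID4A, which binds the retinoblastoma protein and the SIN3 complex, went from 49.3, 53.4 and 49.5 CPM to 33, 32.1 and 32.8 CPM (64.4% of control, edgeR adjusted p = 5.40e-07). Its paralog ARID4B had 105, 117 and 106 against 104, 101 and 107 CPM, with overlapping groups (log2 fold change -0.07, SE 0.05). ARID4B stood to ARID4A as 2.03 to 2.10 with the control siRNA and as 3.00 to 3.09 with the HOTAIR-N siRNA, in TPM. ARID3B, ARID3C and ARID5A had log2 fold changes of -0.09, -0.06 and -0.09 (SE 0.07, 0.20 and 0.20). The latter 2 lay under 2 CPM in all libraries, where a change of this size was not detectable.

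ARID5B rose, and 1 of its forms fell. ARID5B, a partner of the demethylase PHF2, had 27.3, 28.9 and 25.4 CPM with the control siRNA and 50.4, 49.4 and 50.3 CPM with the HOTAIR-N siRNA, 1.84-fold more (log2 fold change 0.88, SE 0.06, edgeR adjusted p = 5.54e-08). The long form NM_032199 went from 22.9, 22.5 and 20.2 CPM to 48.5, 47 and 47.7 CPM (log2 fold change 1.13, edgeR adjusted p = 0.000137). The short form NM_001244638 went from 4.4, 6.37 and 5.13 CPM to 2.26, 2.37 and 3.13 CPM (log2 fold change -1.03, SE 0.23, edgeR adjusted p = 0.018). The forms moved in opposite directions, and the share of the short form was 17.9% to 24.3% with the control and 5.01% to 6.93% with the HOTAIR-N siRNA. Its usage call passed the test (limma adjusted p = 0.00999) and also without each library in turn (limma adjusted p from 0.0208 to 0.0467). The call was lost with the replicate number as a block (limma adjusted p = 0.0853), and diffSpliceDGE did not call ARID5B. The short form starts 147.9 kb downstream and encodes 945 of 1188 residues. The first 30 coding bases, with the start codon in capitals, differ, since 21 and 4 of them come from each form's own first exon (GENCODE v29, GRCh38, plus strand, coding parts at chr10:61901710-61901730 and chr10:62049480-62049483).
NM_032199: ATGgagcccaactcactccagtgggtcggc
NM_001244638: ATGgcgccaaatcttaaaggcagaccacgc

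Changes in CHD genes were small and in both directions. Of 10 genes, 4 rose, 4 fell and 2 did not pass the test, and 0 reached 1.5-fold in edgeR's test. Of all tested genes 71.1% changed and 32.7% changed by at least 1.5-fold. Against a minimum change of 1.2-fold (edgeR glmTreat), CHD1, CHD1L, CHD3, CHD4, CHD6, CHD8 and CHD9 lost their calls. The smallest adjusted p among them was 0.0884, for CHD3. CHD2 kept its call, and 6876 of all 14919 tested genes passed. The summed level of the CHD genes was 298.8, 303.4 and 300 TPM with the control siRNA and 294.6, 286.4 and 292.9 TPM with the HOTAIR-N siRNA.

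In subfamily II, the NuRD ATPases CHD3 and CHD4 both fell. CHD4, the main ATPase of NuRD, had 299, 292 and 296 CPM against 256, 251 and 251 CPM (85.4% of control, log2 fold change -0.23, SE 0.04, edgeR adjusted p = 0.000137). CHD3 had 204, 202 and 209 CPM against 168, 165 and 163 CPM (80.7% of control, log2 fold change -0.31, SE 0.04, edgeR adjusted p = 1.90e-05). The replicates of both were within a few percent of each other, so that these small differences stood clear of their spread. CHD5, the neuronal paralog, had 18.7, 16.2 and 16.8 against 19.6, 20.6 and 17.8 CPM and did not pass the test (log2 fold change 0.16, SE 0.08, edgeR adjusted p = 0.0706). It passed without control replicate 1 (adjusted p = 0.0351) or HOTAIR-N replicate 3 (adjusted p = 0.0288), and with library totals or upper quartiles as the scaling.

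In subfamily I, CHD1 and CHD2 went opposite ways. CHD2 fell from 142, 151 and 150 CPM to 112, 107 and 114 CPM (75.4% of control, log2 fold change -0.41, SE 0.05, edgeR adjusted p = 6.28e-06). CHD1, which binds trimethylated lysine on histone H3 at active promoters, rose from 66.7, 75.1 and 68.2 CPM to 80.4, 78.4 and 81.1 CPM (1.14-fold, edgeR adjusted p = 0.0072). In TPM the ratio of CHD2 to CHD1 was 1.44 to 1.54 with the control siRNA and 0.99 to 1.06 with the HOTAIR-N siRNA. CHD1L (ALC1), a remodeler activated by poly(ADP-ribose) at DNA breaks, rose 1.23-fold from 59.3, 64.7 and 63.9 CPM to 77.8, 74.7 and 77.8 CPM (edgeR adjusted p = 0.000255). A rare CHD1L transcript, NM_024568, had 22 to 29 counts in the control libraries and 0 in all 3 with the HOTAIR-N siRNA. This was 8.22-fold lower against an assumed floor of 3 counts per library. The value is not a bound, since RSEM shared the reads among many listed CHD1L transcripts. NM_024568 passed the filter through the control group alone and never held more than 1.38% of the gene.

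Subfamily III genes also split. CHD8, a gene often mutated in autism, rose from 87.3, 89.6 and 88.6 CPM to 106, 100 and 102 CPM (1.16-fold, edgeR adjusted p = 0.00093). CHD9 rose from 39.3, 40.9 and 38.9 CPM to 44.9, 43.9 and 48.2 CPM (1.15-fold, edgeR adjusted p = 0.00613). CHD6 fell from 83.7, 82.9 and 84.5 CPM to 74.9, 72.2 and 73.8 CPM (87.9% of control, edgeR adjusted p = 0.00269). Their groups did not overlap. CHD7, mutated in CHARGE syndrome, stood at 151 to 163 CPM in all 6 libraries (log2 fold change -0.04, SE 0.04, edgeR adjusted p = 0.398). Of the SNF2-type proteins outside these complexes, SMARCAL1, which anneals DNA at stalled replication forks, fell to 87.8% of control (27, 26.4 and 25.2 against 23.2, 23.6 and 22.3 CPM, edgeR adjusted p = 0.012). Its call was lost with library totals or upper quartiles as the scaling (adjusted p = 0.177 and 0.058), and that of CHD6 with library totals (adjusted p = 0.0921). SMARCAD1 had 55.4 to 62.6 and 56.1 to 58.2 CPM (log2 fold change -0.03, SE 0.06), with overlapping groups.

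Partners of the CHD and ARID4 proteins in histone deacetylase complexes were largely lower. Of 12 NuRD partner genes, 11 fell and MBD2 rose (71.1% of all tested genes changed, 34.8% lower), with a median log2 fold change of -0.37. Against a minimum change of 1.2-fold (edgeR glmTreat), 6 of the 12 were lower and 0 higher. By that test 3312 of all 14919 tested genes were lower. GATAD2B, which bridges CHD4 to the deacetylase core, went from 91.2, 94 and 88.7 CPM to 39.7, 42.9 and 42 CPM (45.5% of control, edgeR adjusted p = 2.04e-09). CDK2AP1 stood at 46.6%, MBD3, the methyl-CpG family subunit, at 53.8% and the deacetylase HDAC1 at 74.9% of control. MBD2, the alternative to MBD3, was at 109% (edgeR adjusted p = 0.0436), a call lost under most alternatives, including each single library left out other than control replicate 2. Of 11 SIN3 partner genes 9 fell, SIN3B rose to 132% of control and SAP30L did not pass the test (71.1% of all tested genes changed, 34.8% lower). Their median log2 fold change was -0.34. Against a minimum change of 1.2-fold 5 were lower, where 3312 of all 14919 tested genes were. BRMS1L had the largest fall of all the partner lists, from 32.1, 34.8 and 31.9 CPM to 9.99, 11.8 and 11.2 CPM (33.3% of control, edgeR adjusted p = 2.36e-09). SUDS3 at 70.6%, the scaffold SIN3A at 78.0% and SAP30 at 58.5% of control followed by their p.

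**Figure D5:**
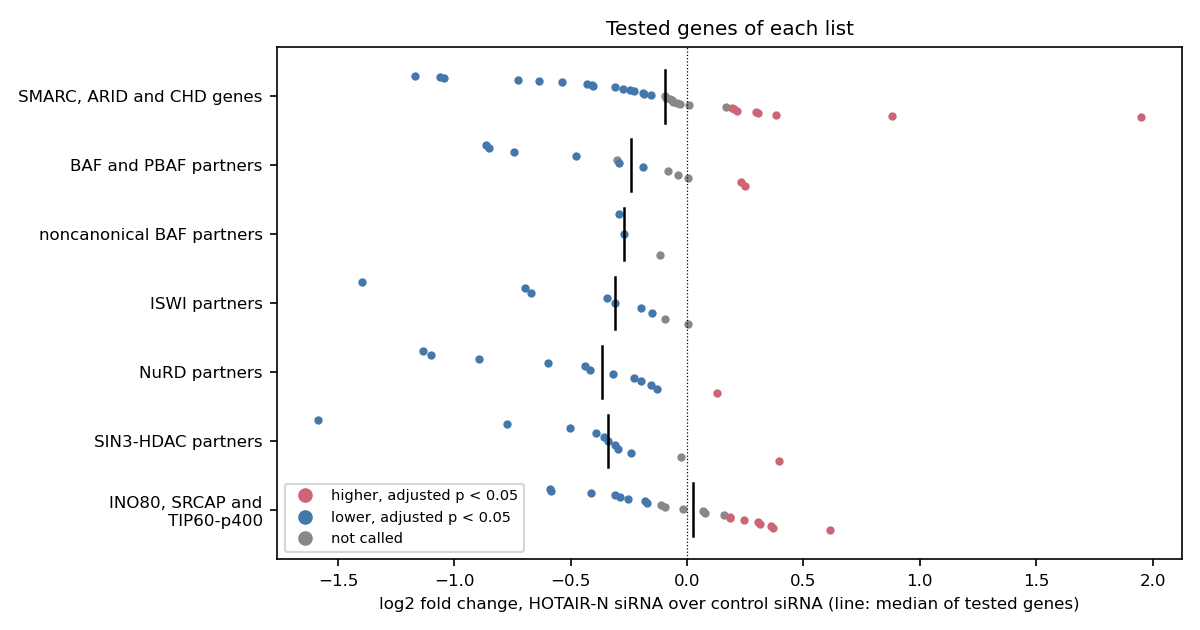
Log2 fold change (x axis, HOTAIR-N siRNA over control siRNA) of the tested SMARC, ARID and CHD genes and of the tested genes of 6 partner lists, 1 point per gene, with the median as a black line. Medians lie at -0.24 for BAF and PBAF, -0.31 for ISWI, -0.37 for NuRD and -0.34 for SIN3 partners, and at 0.03 for the INO80, SRCAP and TIP60-p400 genes.

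At the level of transcripts, 127 were listed for these genes and 80 had enough counts. Among these, 6 rose and 22 fell (35% changed; of all 32285 tested transcripts 32% changed, 15.4% higher and 16.6% lower). Of 69 tested for usage (limma on the log2 share of a transcript in its gene), 8 in 7 genes passed, where 6.14% of all 25038 tested transcripts did. The 8 include both SMARCD3 transcripts and CHD1L NM_024568, which were at 0 in 1 group and passed the count filter through the other, so nothing is read from the share. Beside those described, they were ARID1B NM_017519, which took 10.6% to 11.8% of the gene with the control and 15.9% to 19.2% with the HOTAIR-N siRNA, and SMARCD2 NM_001098426, at 7.44% to 8.93% and 12.4% to 15.4%. Both calls (limma adjusted p = 0.0349 and 0.0359) were lost without any one library (adjusted p 0.0632 to 0.112 and 0.06 to 0.118). For ARID2 and SMARCD1, the genes with the lowest log2 fold changes, no usage call was made. The ARID2 transcripts NM_001347839 and NM_152641 both had a log2 fold change of -1.16, and the SMARCD1 transcripts NM_003076 and NM_139071 had -1.05 and -1.14.

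A short sequence in the 3′ UTRs was examined because an earlier analysis of these same fold changes had picked the letters GACCAAT as associated with lower levels. That choice used these genes too, so no count here is independent of it. The sense strand of the longest annotated 3′ UTR per gene (GENCODE v29 transcripts matched to the deposited RefSeq names) was searched for the 7 letters and for the last 6, ACCAAT, which every match to the longer word also holds. GACCAAT was found in 1 of 33 genes, ARID3A, and in 5.94% of 13074 tested genes. ACCAAT without the preceding G was found in 7 others (21.2%, against 16.9% of all). The searched 3′ UTRs had a median of 1712 bases for the 33 genes and 1216 for all. The median log2 fold change was -0.54 for these 7 and -0.09 for the 25 with neither word, and -0.11 and 0.04 over all genes. The 4 genes with the lowest log2 fold changes, ARID2, SMARCD1, ARID3A and ARID1B, each held a match, and so did SMARCA2. SMARCA5, which rose, and SMARCAD1 and SMARCC2, which did not pass the test, also held one, whereas ARID4A, at 64.4% of control, held none. A searched GENCODE transcript can be longer than the deposited one. For ARID3A it had 5941 bases against 2810. For ARID2 it had 8642 bases, whereas NM_001347839, with 62.8% of the gene in the control libraries, had 5686. Whether the counted transcripts hold these sites was not tested. The sites are shown with 9 bases on each side of ACCAAT, the word in capitals, because they lie in the genes that fell the most (GRCh38, plus strand, chr12:45905561-45905584 and chr12:45906989-45907012 for ARID2, chr12:50099021-50099044 for SMARCD1, chr19:972846-972869 for ARID3A and chr6:157208015-157208038 for ARID1B).
ARID2, first site: gagggggccACCAATatctagcta
ARID2, second site: tgaattagtACCAATgtaaaatct
SMARCD1: ttcgactgcACCAATtcttgattt
ARID3A: tttcccatGACCAATttgggtccc
ARID1B: tcactatttACCAATtgggaatta
A match is a description of the letters and does not show that anything binds there.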

How the data were processed

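RNA-seq of 3 control siRNA and 3 HOTAIR-N siRNA libraries of T47D cells was used. Ribosome-depleted stranded libraries were made, per the labels' protocols. The submitters' processing notes name the aligner STAR 2.6.0c, the counter RSEM 1.3.0 and the build hg19. Whether reads were counted by strand was not stated in the sources used. The authors deposited, per the file headers, expected counts, TPM and FPKM per gene and transcript, and each transcript's share of its gene as a percent. Libraries summed to 31777001 to 36707169 expected counts, so 1 CPM is 31.8 to 36.7 counts.

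Expected counts were rounded, filtered with filterByExpr (minimum count 10, minimum total 15), scaled by TMM and tested with edgeR 4.0.16 (quasi-likelihood, R 4.3.3, no covariates), adjusted over all genes or transcripts by Benjamini-Hochberg and called under 0.05. CPM are TMM-scaled. Usage was tested with limma 3.58.1 on log2 shares (pseudocount of 0.5 counts). TPM ratios were compared by exact permutation. The steps were tested on simulated data. Same-numbered libraries did not deviate together (r -0.04, -0.21 and -0.12 over 14919 genes), so numbers were not treated as pairs. Libraries of a group differed by more than sampling noise (chi-square over its degrees of freedom at least 2.21). The value was 8.90 and 9.02 for control replicate 2 against the others of its group. It was 6.99 and 7.75 for HOTAIR-N replicate 3 against the others of its group. These libraries deviated together (r 0.22), and fits without both were among the alternatives.

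The genes and lists were chosen with earlier results of these data known. All genes matched by the rule are named. Of each partner list the 4 with the smallest p, and any against the majority of its called genes, are named, and the rest chosen after their values were seen. Transcripts named are those called for usage and the tested ones of genes that changed most. Alternatives were DESeq2 1.42.0, limma-voom, other scalings, filters and thresholds, the replicate number as a block, and left-out libraries.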

Additional observations from a re-analysis of the deposited data

How the results depend on the processing

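The 24 called genes kept their direction in 408 of 408 fits under alternatives and were called in 384. Scaling by library totals moved the median log2 fold change of all genes from 0.02 to 0.12 (upper quartiles 0.08) and gave 10 of these genes higher and 13 lower. Against a minimum change of 1.2-fold (edgeR glmTreat), 12 of the genes passed, 3 higher and 9 lower. So did 26 partner genes (4 higher, 22 lower, of 55, 12 and 43). Of all 14919 tested genes 6876 passed (3564 higher, 3312 lower). With the replicate number as a block, 23 genes were called, but 16 member transcripts in place of 28 and 2 usage calls in place of 8. Left-out libraries gave 4 to 8 usage calls, and diffSpliceDGE called 2 genes for usage in place of 7. In the block fit NM_001003802 of SMARCD3 and NM_024568 of CHD1L stayed called for usage. Both were at 0 with the HOTAIR-N siRNA and passed the count filter through the control group, so nothing is read from these 2 calls. The usage calls of NM_001003801 of SMARCD3 (adjusted p = 0.0569), ARID5B (0.0853), SMARCA1 (0.105), ARID1B (0.154), SMARCA2 (0.198) and SMARCD2 (0.202) were lost, as was that of SMARCA4 as a gene (0.0525). The cause of these differences was not tested, apart from the stricter null of the 1.2-fold test.

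Sign changes occurred only in genes that did not pass the test. With library totals the log2 fold change was 0.004 for ARID3B, 0.035 for ARID3C, 0.024 for ARID4B, 0.008 for ARID5A, 0.055 for CHD7, 0.070 for SMARCAD1 and 0.032 for SMARCC2. Upper quartiles gave 0.014 for CHD7 and 0.029 for SMARCAD1. SMARCE1 had -0.004 with DESeq2 size factors and with DESeq2, and -0.012 without a filter. Left-out libraries gave -0.013 to 0.028 for SMARCE1, -0.177 to 0.120 for ARID3C (-0.274 without both control replicate 2 and HOTAIR-N replicate 3) and -0.071 to 0.019 for SMARCAD1. SMARCE1 passed only with library totals (0.106, adjusted p = 0.0297). For genes under 2 CPM the number of counts limits the precision.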

Other observations

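Remodelers of the INO80 family, which slide nucleosomes or exchange the histone variant H2A.Z, showed no common direction. Of 22 listed genes of INO80, SRCAP and TIP60-p400, 8 rose, 8 fell and 6 did not pass edgeR's quasi-likelihood test. The share changed was 72.7%, where 71.1% of all tested genes changed, 36.2% higher and 34.8% lower. The median log2 fold change of the 22 was 0.03. INO80, the ATPase, had 62.3, 65 and 63.1 CPM with the control siRNA and 83.9, 82.6 and 79.6 CPM with the HOTAIR-N siRNA (129% of control, edgeR adjusted p = 1.99e-05). ZNHIT1, a subunit of SRCAP, went from 32.9, 32.7 and 34.1 CPM to 22.7, 22.7 and 20.8 CPM (66.4% of control, edgeR adjusted p = 2.25e-06). YEATS4, a histone reader of SRCAP and TIP60-p400, stood at 66.7% and the scaffold TRRAP at 75.0% of control. None of the 22 reached 2-fold, against 15.8% of all tested genes that did. SRCAP itself, an ATPase, stood at a log2 fold change of 0.07 and did not pass the test (edgeR adjusted p = 0.276).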
